A study of Sus scrofa with 6 samples.

Results

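LRRK2, PINK1, PARK7, VPS35 and FBXO7 are 5 genes in which inherited variants cause Parkinson disease or parkinsonism in people. They were picked by gene symbol, with earlier results of these data known, and all 5 were present among the 30477 genes of single-cell RNA sequencing data from porcine midbrain-like organoids (pMLOs). Their levels were followed per library and day, and in 5 groups of cells that were each gated on 1 gene. The pMLOs came from 1 line of embryonic stem cells from in vitro fertilised pig embryos (IVF_1_ pESC_FIW), with no other genotype and no untreated arm, so every library shares that line and the patterning agents. By the study's methods these were SB431542, Noggin, SHH-C24II, CHIR99021 and FGF8, with the maturation factors BDNF and ascorbic acid added before D11. The maturation factors GDNF, db-cAMP and DAPT, and embedding in Matrigel, came only after D11. Comparisons with D11 thus also differ in medium and matrix, and the part of these was not tested. Organoids were sampled on day 11, day 28 and day 45 (D11, D28, D45), with 2 libraries a day, replicates A and B, which the study calls biological duplicates. The labels do not say whether these came from separate differentiations, so p-values cover the spread between the libraries, which may be technical.

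Parkinson disease is marked by loss of the dopaminergic neurons of the ventral midbrain, which express tyrosine hydroxylase (TH) and which this protocol sets out to make. The study reports TH in other neuronal clusters of these organoids as well. The proteins of the 5 genes work in different compartments. LRRK2 is a large kinase that phosphorylates Rab GTPases on vesicles and lysosomes, and VPS35 is the core of the retromer, the coat that returns cargo from endosomes. PINK1 is a kinase that builds up on damaged mitochondria and starts their removal by mitophagy. PARK7 encodes DJ-1, a small protein that protects cells against oxidative stress. FBXO7 encodes an F-box protein, the substrate-binding subunit of a ubiquitin ligase, which also binds the proteasome regulator PSMF1 and the cell cycle kinase CDK6. Floor plate cells, from which midbrain dopaminergic neurons arise, express CORIN. Astrocytes express the water channel AQP4, and the oligodendrocyte lineage expresses the transcription factor SOX10.

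The kept cells numbered from 13870 to 21553 per library and held from 106805311 to 180034791 unique molecular identifiers (UMIs, each 1 counted RNA molecule). The median per cell ran from 2300.5 UMIs in D45 replicate A to 10757 UMIs in D11 replicate A. Any pair of libraries shared from 54 to 111 cell barcodes, at most 0.637% of the smaller library. TH-positive cells had at least 1 TH UMI. Other STMN2-positive cells had at least 3 UMIs of STMN2, an abundant neuronal mRNA, and no TH. AQP4-, SOX10- and CORIN-positive cells had at least 1 UMI of that gene, no TH and fewer than 3 STMN2 UMIs. Cells that held AQP4, SOX10 or CORIN together with another of these classes, from 360 to 1797 per library, were in no group. TH-positive cells could hold any number of STMN2 UMIs, and their median ran from 6 to 77 per library.

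The groups did not match the cell types they are named for on every day. TH-positive cells, from 508 to 1577 per library, held DDC, the next enzyme of dopamine synthesis, at 28.1 and 25.6 UMIs per 1000000 UMIs (CPM) on D11, 206 and 193 CPM on D28 and 39.6 and 174 CPM on D45. Other STMN2-positive cells held less DDC in each of these libraries, from 12.9 to 71.4 CPM. The dopamine transporter SLC6A3 stood at 2.24 and 1.28 CPM in the TH-positive cells of D11, 16.0 and 9.09 CPM on D28 and 0.957 and 8.15 CPM on D45, against 0.402 to 1.72 CPM in other STMN2-positive cells, so the groups overlapped on D11 and D45. PITX3, a defining factor of these neurons, had no UMI in the TH-positive cells of D11 and at most 1.36 CPM later. With UMIs pooled over libraries, EN1 (74.5 CPM), RET (39.8 CPM) and SLC18A2 (14.3 CPM) were higher there than in any other group. NR4A2 was at 69.1 CPM, against 86.7 CPM in CORIN-positive and 61.1 CPM in SOX10-positive cells. ALDH1A1 stood at 3.64 CPM against 3.76 CPM in AQP4-positive cells, and KCNJ6 at 166 CPM against 135 CPM in other STMN2-positive cells. The libraries are labelled midbrain dopaminergic neurons, while TH-positive cells made up from 3.14% to 9.83% of each. Of all cells with TH, those with a single TH UMI numbered 242 of 600 and 425 of 839 on D11, 1015 of 1665 and 984 of 1648 on D28, and 842 of 1189 and 1424 of 2062 on D45. TH UMIs were found in 12.1% to 34.1% of cells that passed the STMN2 gate (median of 6348 to 11559 UMIs per cell). In D28 replicate B and D45, where the SOX10-positive cells carried oligodendrocyte markers and should lack TH, it was found in 3.92%, 2.15% and 7.08% of cells past the SOX10 gate (median of 10250.0 to 10832 UMIs). Past the AQP4 gate it was found in 9.38% (6 of 64 cells) and 3.85% (1 of 26) on D28 and in 3.81% and 7% on D45 (medians of 5248 to 18456 UMIs). TH-positive cells also carried a list of 5 fibroblast markers, at 531 and 113 CPM on D28 and 303 and 1502 CPM on D45. Other STMN2-positive cells held the same list at 521 and 110 CPM on D28 and at 340 and 986 CPM on D45. The part of free RNA in either group was not tested. Of the TH-positive cells, 462 of 508 and 523 of 677 on D11 had at least 3 STMN2 UMIs. On D28 these were 1151 of 1398 and 1197 of 1363, and on D45 673 of 990 and 1001 of 1577. In other STMN2-positive cells 9 neuronal markers summed to 10070 and 10299 CPM on D11 and to 2583 and 2988 CPM on D45. In TH-positive cells that sum went from 11990 and 12302 CPM to 2813 and 3513 CPM. Over the same days 7 astrocyte markers in other STMN2-positive cells went from 284 and 356 CPM to 1256 and 1529 CPM. Their median STMN2 count went from 26 and 25 UMIs to 6 and 8 UMIs. The part of these shifts in the values below was not tested. The TH-positive and other STMN2-positive groups are called neurons or neuronal below by their gates alone.

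AQP4-positive cells carried the astrocyte genes GFAP, at 132 and 68.2 CPM on D28 and 367 and 409 CPM on D45, and SLC1A3, at 261 and 398 CPM and at 799 and 564 CPM. D11 held 0 and 2 such cells in replicates A and B and D28 held 58 and 25, so most of them came from D45, which held 1009 and 1289. The AQP4-positive cells of D28 also carried fibroblast markers at 1824 and 1329.8 CPM, against 969.6 and 1712 CPM on D45, and 8 floor plate markers at 352 and 1073 CPM. The 4 mitotic markers stood at 809.6 and 136 CPM on D28. The part of this mix in the AQP4-positive values was not tested. CORIN-positive cells went from 5250 and 7648 on D11 to 247 and 501 on D45, and held FOXA1 at 304 CPM and the floor plate signal SHH at 47.4 CPM, with UMIs pooled over libraries. D11 gave most of these pooled UMIs. The 8 floor plate markers summed to 1005 and 652 CPM in the CORIN-positive cells of D45 replicates A and B, against 3361 and 2842 CPM on D11. The 5 fibroblast markers summed to 3106 and 4959 CPM in the CORIN-positive cells of D45 replicates A and B, against 18.6 and 20.2 CPM on D11. Oligodendrocyte lineage markers summed to 401 and 262 CPM there on D45.

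SOX10-positive cells changed in their markers. The 8 oligodendrocyte lineage markers other than SOX10 summed to 6.92 and 11.2 CPM in the 122 and 119 SOX10-positive cells of D11 replicates A and B, where the myelin gene MBP and the precursor marker PDGFRA had no UMI. The sum was 127 CPM in the 91 cells of D28 replicate A, where 4 of the 8 were at 0 and the fibroblast list summed to 2761 CPM. It was 1708 CPM in the 343 cells of D28 replicate B, and 5444 and 4007 CPM in the 1275 and 1260 cells of D45. The oligodendrocyte lineage is thus named here only for D28 replicate B and D45, and the SOX10-positive cells of the other 3 libraries are called by SOX10 alone.

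LRRK2 (ENSSSCG00000000784) and FBXO7 (ENSSSCG00000000156) lie on chromosome 5 of the Sscrofa11.1 assembly, at 71800337 to 71945828 on the forward strand and at 12505646 to 12526206 on the reverse strand. PINK1 (ENSSSCG00000003506, 78863195 to 78884663), PARK7 (ENSSSCG00000003385, 68629327 to 68645147) and VPS35 (ENSSSCG00000026239, 37944099 to 37977091) all lie on the forward strand of chromosome 6. No gene of the RefSeq annotation overlaps any of the 5, other than a tRNA gene within PARK7. The 250 bases before the RefSeq start of LRRK2 and of FBXO7 are shown because these 2 members moved in opposite directions within the SOX10-positive cells. CpG dinucleotides are in capitals, and each sequence runs 5′ to 3′ on the gene's own strand.
LRRK2, chr5:71800087-71800336, forward strand: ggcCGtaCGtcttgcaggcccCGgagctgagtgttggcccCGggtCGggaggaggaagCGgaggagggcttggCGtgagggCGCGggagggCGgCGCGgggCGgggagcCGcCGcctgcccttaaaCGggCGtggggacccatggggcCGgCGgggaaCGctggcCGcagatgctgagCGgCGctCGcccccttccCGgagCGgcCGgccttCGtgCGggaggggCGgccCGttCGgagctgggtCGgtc
FBXO7, chr5:12526207-12526456, reverse strand: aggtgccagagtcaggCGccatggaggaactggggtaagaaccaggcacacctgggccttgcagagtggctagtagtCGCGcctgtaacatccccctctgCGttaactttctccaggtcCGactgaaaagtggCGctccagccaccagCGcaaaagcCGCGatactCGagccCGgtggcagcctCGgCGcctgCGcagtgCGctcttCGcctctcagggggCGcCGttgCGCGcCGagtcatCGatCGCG
The LRRK2 window held 33 CpGs and the FBXO7 window 24, against a median of 11 in the same window of 20653 protein-coding genes, of which 91.4% and 79.2% held fewer. Neither window held ACAAAG or ACAATG, core letters of SOX factor motifs, on either strand. These were found in 12.4% and 7.71% of all such windows. RefSeq starts are annotated and were not measured here, and the absence of these letters says nothing about SOX10 at either gene.

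In whole organoids PINK1 rose from D11 to D28 and to D45, and PARK7 was lower on D45 than on D11. No change between days passed the test for LRRK2, VPS35 or FBXO7. PINK1 was at 16.2 and 16.4 CPM in D11 replicates A and B, at 30.03 and 40.8 CPM on D28 and at 51.4 and 55.0 CPM on D45. The days did not overlap, and every later library was above every earlier one. In edgeR's quasi-likelihood test over all genes with TMM scaling and Benjamini-Hochberg adjustment, PINK1 was higher on D28 than on D11 by 0.84 on the log2 scale (SE 0.16, adjusted p = 0.0124). It was higher on D45 than on D11 by 1.30 (SE 0.16, adjusted p = 0.0016), and the step from D28 to D45 was 0.45 (SE 0.16, adjusted p = 0.111). The first of these calls was lost when D11 replicate A (adjusted p = 0.14) or D11 replicate B (adjusted p = 0.102) was left out.

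PARK7 was at 403 and 476 CPM on D11, at 452 and 329 CPM on D28 and at 260.2 and 327 CPM on D45. Both D45 libraries were below both D11 libraries, while D28 overlapped D11. The difference of D28 from D11 was -0.41 (SE 0.29, adjusted p = 0.348), -0.80 (adjusted p = 0.0287) without D28 replicate A and -0.11 (adjusted p = 0.718) without D28 replicate B. From D28 to D45 it was -0.58 (SE 0.29, adjusted p = 0.222), -0.89 (adjusted p = 0.01) without D28 replicate B and -0.14 (adjusted p = 0.701) without D28 replicate A. The difference of D45 from D11 was -0.99 on the log2 scale (SE 0.30, adjusted p = 0.0387). It did not pass when any one of the D11 or D45 libraries was left out, with an adjusted p of 0.13 without D11 replicate A, 0.272 without D11 replicate B, 0.232 without D45 replicate A and 0.0992 without D45 replicate B. It was not called with total UMIs in place of TMM factors, where it was -0.58, nor without called doublets, where it was -0.89, nor with the replicate block (-0.99, adjusted p = 0.0807).

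LRRK2 stood at 20.9 and 17.9 CPM on D11, at 11.3 and 21.6 CPM on D28 and at 17.4 and 17.8 CPM on D45. The lowest and the highest of these values both came from D28. The difference of D28 from D11 was -0.53 (SE 0.25, adjusted p = 0.164), and it was -0.93 (adjusted p = 0.00283) when D28 replicate B was left out and -0.22 (adjusted p = 0.344) when D28 replicate A was. The difference of D45 from D11 was -0.55 (SE 0.25, adjusted p = 0.131), and it passed without D28 replicate A (adjusted p = 0.013) or without D28 replicate B (adjusted p = 0.00838). It did not pass when a D11 or D45 library was left out, with values from -0.61 to -0.41. With total UMIs these differences were -0.24 (adjusted p = 0.603) for D28 and -0.14 (adjusted p = 0.744) for D45.

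FBXO7 was at 16.2 and 15.8 CPM on D11, 23.3 and 25.5 CPM on D28 and 27.6 and 25.7 CPM on D45, so D11 did not overlap the later days. With TMM scaling the difference of D28 from D11 was 0.35 (SE 0.15, adjusted p = 0.148) and that of D45 from D11 was 0.32 (SE 0.15, adjusted p = 0.149). With total UMIs these were 0.61 (adjusted p = 0.0419) and 0.73 (adjusted p = 0.0168), and both passed. VPS35 lay at 88.0 and 88.7 CPM on D11, at 98.5 and 119.7 CPM on D28 and at 110.4 and 110.7 CPM on D45.

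Total UMIs placed the median gene of whole organoids 0.27 higher than TMM did for D28 against D11, and 0.41 higher for D45 against D11, on the log2 scale. PINK1 was called in both comparisons under either scaling. Among all genes called, 54.3% were higher on D28 than on D11 with TMM and 77.2% with total UMIs, and for D45 against D11 these shares were 49.8% and 74.6%. Of the 22192 genes tested, 23.1% were called for D28 against D11, 9.4% for D45 against D28 and 34.6% for D45 against D11, and 1, 0 and 2 of the 5 members were among them. DESeq2 also called 0 members for D45 against D28, and 1 member had an unadjusted p under 0.05 there. The mix of cells changed at the same time. CORIN-positive cells went from 35.7% and 35.5% of the libraries on D11 to 1.23% and 2.72% on D45, and the 5 fibroblast markers from 12.1 and 16.5 CPM to 842 and 2370 CPM. Their part in the whole-organoid values was not tested.

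**Figure D1:**
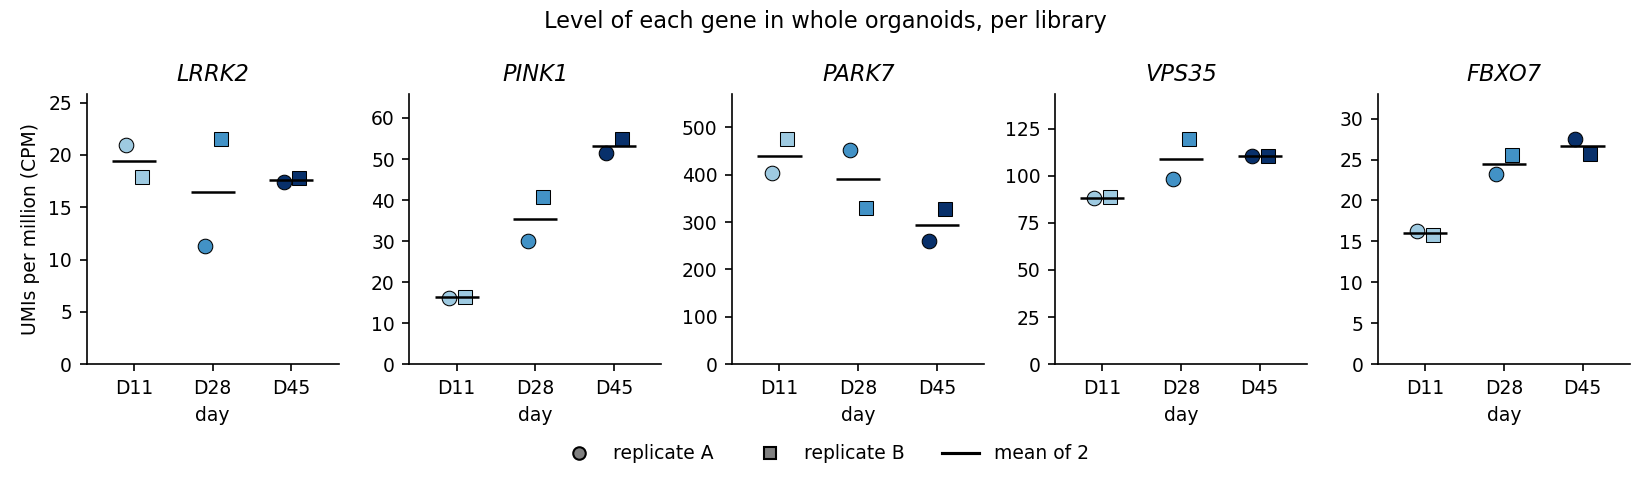
Level of each of the 5 genes in whole organoids (y axis, UMIs of the gene per 1000000 UMIs, linear from 0) by day (x axis). Each point is 1 library, a circle for replicate A and a square for replicate B, and the line is the mean of 2. PINK1 climbs from 16.2 CPM to 55.0 CPM with no overlap of days, and the D28 libraries of LRRK2 (11.3 and 21.6 CPM) lie far apart.

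LRRK2 was low in neurons and several times higher in the AQP4- and CORIN-positive groups. In TH-positive cells it was at 6.20 and 4.65 CPM on D11, 4.09 and 6.88 CPM on D28 and 5.86 and 8.86 CPM on D45 (replicates A and B). Other STMN2-positive cells held 6.35, 5.40, 5.26, 8.78, 8.51 and 9.63 CPM in the same order of libraries. CORIN-positive cells held 25.6, 21.5, 17.3, 36.6, 31.6 and 26.3 CPM, and no library overlapped the neurons. AQP4-positive cells held 8.85 and 36.4 CPM on D28, from 8 and 16 LRRK2 UMIs, and 39.1 and 31.2 CPM on D45, from 375 and 398 UMIs. SOX10-positive cells held 20.1 and 14.2 CPM on D11, 16.5 and 14.4 CPM on D28 and 11.8 and 13.0 CPM on D45. By mean level on D45 the order was AQP4-positive (35.1 ± 5.53, SD, n = 2 libraries), CORIN-positive (29.0 ± 3.74), SOX10-positive (12.4 ± 0.862), other STMN2-positive (9.07 ± 0.793) and TH-positive cells (7.36 ± 2.12). The first 2 of this order overlap, and so do the last 2.

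LRRK2 exceeded its level in other STMN2-positive cells by 2.12 on the log2 scale in CORIN-positive cells of D11 and D28 (SE 0.12, adjusted p = 3.0e-04), and by 1.86 in AQP4-positive cells of D28 and D45 (SE 0.24, adjusted p = 2.5e-04). Both passed under all 16 alternatives run, with ranges of 1.26 to 2.43 and 1.43 to 2.52. In SOX10-positive cells of D28 and D45 the difference was 0.89 (SE 0.22, adjusted p = 0.019). It was 0.95 without D28 replicate B, which ended the call (adjusted p = 0.0565), and 0.30 when 1 STMN2 UMI made a cell STMN2-positive. TH-positive cells were lower than other STMN2-positive cells by -0.30 (SE 0.12, adjusted p = 0.19), which did not pass. The value was -0.60 (adjusted p = 0.00799) when TH-positive cells also had 3 STMN2 UMIs and -0.89 (adjusted p = 0.00102) when 1 STMN2 UMI made a cell STMN2-positive, and it changed sign, to 0.24, when cells of mixed class were kept.

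PINK1 was higher on the later days in every group. TH-positive cells held 23.2 and 21.5 CPM on D11, 31.5 and 38.6 CPM on D28 and 54.7 and 63.7 CPM on D45. Other STMN2-positive cells followed the same course, at 20.8, 19.7, 26.6, 35.4, 49.3 and 52.4 CPM. In AQP4-positive cells it was at 28.8 and 45.5 CPM on D28, from 26 and 20 UMIs, and at 65.4 and 72.7 CPM on D45. In SOX10-positive cells it stood at 10.4 and 9.69 CPM on D11, from 15 and 13 UMIs, at 26.9 and 18.4 CPM on D28 and at 35.1 and 36.8 CPM on D45. CORIN-positive cells held 18.8, 17.8, 34.6, 53.5, 66.3 and 50.1 CPM. D11 overlapped no later day in the groups with enough D11 cells, which leaves out AQP4-positive cells (0 and 2 cells). D28 overlapped D45 only in CORIN-positive cells.

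Of the steps tested within groups, 1 passed. In CORIN-positive cells PINK1 was higher on D28 than on D11 by 1.18 (SE 0.19, adjusted p = 0.0051), a call that was lost without D11 replicate A (adjusted p = 0.0625) or D11 replicate B (adjusted p = 0.0597). The 4 mitotic markers in these cells went from 843 and 801 CPM on D11 to 96.4 and 51.2 CPM on D28, while CLU, a secreted chaperone that stood on the astrocyte list, went from 499 and 608 CPM to 8430.2 and 5636 CPM. The defining astrocyte gene GFAP was at 0.224 and 0.561 CPM on D11 and at 2.85 and 3.32 CPM on D28, and SLC1A3 at 4.01 and 3.39 CPM and at 33.6 and 35.5 CPM. The fibroblast list went from 18.6 and 20.2 CPM to 926 and 572 CPM, and the 8 floor plate markers from 3361 and 2842 CPM to 1454 and 2499 CPM. The part of these shifts in the differences of the CORIN-positive cells between days, for PINK1 and for the other members, was not tested.

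For D45 against D28 the PINK1 values were 0.67 in TH-positive (SE 0.20, adjusted p = 0.108), 0.62 in other STMN2-positive (SE 0.18, adjusted p = 0.116), 0.80 in AQP4-positive (SE 0.25, adjusted p = 0.116) and 0.67 in SOX10-positive cells (SE 0.30, adjusted p = 0.276). None of these 4 passed, and the same D28 libraries enter each of them. Without D28 replicate B the first 3 passed, at 0.72 (adjusted p = 0.0339), 0.71 (adjusted p = 0.0111) and 0.99 (adjusted p = 0.0425), and without D28 replicate A the fourth passed, at 1.04 (adjusted p = 0.0296). In the opposite case none passed, with adjusted p of 0.0991, 0.0833 and 0.227 for the first 3 without D28 replicate A and a value of 0.28 (adjusted p = 0.389) for the fourth without D28 replicate B. In AQP4-positive cells PINK1 was at 0.035 (adjusted p = 0.978) when cells were thinned to 2000 UMIs each. For D28 against D11 in other STMN2-positive cells the difference was 0.41 (SE 0.19, adjusted p = 0.204).

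Between groups PINK1 was higher in AQP4-positive than in other STMN2-positive cells by 0.44 (SE 0.14, adjusted p = 0.0256), in 4 of 4 libraries. The call was lost under 5 of 16 alternatives, without D45 replicate A (adjusted p = 0.0638) or D45 replicate B (adjusted p = 0.241), with total UMIs (0.36, adjusted p = 0.0614), without the library term (adjusted p = 0.0602) and with thinned cells (adjusted p = 0.0704). In TH-positive cells it exceeded other STMN2-positive cells by 0.23 (SE 0.05, adjusted p = 0.0572). This missed the threshold, and 7 of 17 alternatives passed it. Among these were TH-positive cells with 3 STMN2 UMIs (0.31, adjusted p = 0.00683) and gates of 2 UMIs together with an STMN2 limit of 5 (0.40, adjusted p = 0.0165). With any 1 library left out it did not pass, at 0.19 to 0.25 (adjusted p of 0.101 to 0.18). SOX10-positive cells of D28 and D45 were at -0.35 (SE 0.16, adjusted p = 0.126). CORIN-positive cells of D11 and D28 were at 0.35 (SE 0.19, adjusted p = 0.192). They were below other STMN2-positive cells on D11 (18.8 against 20.8 CPM and 17.8 against 19.7 CPM). On D28 they were above (34.6 against 26.6 CPM and 53.5 against 35.4 CPM). Without D28 replicate A the SOX10-positive value was -0.45 and passed (adjusted p = 0.0358), and without D28 replicate B it was -0.17 (adjusted p = 0.47). It also passed with thinned cells, at -0.68 (adjusted p = 0.0157), and with gates of 2 UMIs and an STMN2 limit of 5, at -0.54 (adjusted p = 0.0213). The CORIN-positive value passed, at 0.54 (adjusted p = 0.0206), with an STMN2 gate of 1 UMI.

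PARK7 was lower in both neuronal groups than in the other groups. TH-positive cells held 273, 335, 349.9, 239.7, 192 and 270.3 CPM in the 2 libraries of D11, of D28 and of D45, replicate A before B. Other STMN2-positive cells held 324, 363, 344, 233, 175 and 239.8 CPM. AQP4-positive cells stood at 471 and 473 CPM on D28 and 427 and 459 CPM on D45, above every neuronal value. SOX10-positive cells held 369, 498, 442, 347, 305 and 356 CPM, and CORIN-positive cells 444, 514, 571, 427, 319 and 327 CPM. Within each library the non-neuronal groups were above both neuronal groups.

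Over D28 and D45 the difference from other STMN2-positive cells was 1.01 in AQP4-positive cells (SE 0.15, adjusted p = 6.0e-04). In SOX10-positive cells it was 0.72 (SE 0.13, adjusted p = 0.0052). Over D11 and D28 it was 0.81 in CORIN-positive cells (SE 0.13, adjusted p = 0.0052). The first and the third passed under all 16 alternatives, and the second missed only without the library term (0.70, adjusted p = 0.0541). No change of PARK7 between days passed in the groups where it was tested. D28 was not tested against D11 in TH- or SOX10-positive cells. Nor was D45 tested in CORIN-positive cells, where its values of 319 and 327 CPM were below those of all earlier libraries. The values for D45 against D28 were -0.61 in other STMN2-positive (SE 0.31, adjusted p = 0.265), -0.48 in TH-positive (SE 0.33, adjusted p = 0.389), -0.25 in AQP4-positive (SE 0.30, adjusted p = 0.615) and -0.31 in SOX10-positive cells (SE 0.32, adjusted p = 0.597). Without D28 replicate B the first 2 were -0.96 (adjusted p = 0.0035) and -0.79 (adjusted p = 0.0405), and without D28 replicate A they were -0.14 (adjusted p = 0.723) and -0.015 (adjusted p = 0.979). For D28 against D11 in other STMN2-positive cells it was -0.42 (SE 0.31, adjusted p = 0.422), -0.88 (adjusted p = 0.0119) without D28 replicate A and -0.072 (adjusted p = 0.818) without D28 replicate B.

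VPS35 kept to a narrow range in most groups. It lay between 102 and 140.2 CPM in TH-positive cells, between 104 and 124 CPM in other STMN2-positive cells and between 114 and 125 CPM in AQP4-positive cells. CORIN-positive cells held from 85.8 to 123 CPM, and their difference from other STMN2-positive cells was -0.07 (SE 0.13, adjusted p = 0.698). SOX10-positive cells held from 68.5 to 97.3 CPM. SOX10- and CORIN-positive cells were each below other STMN2-positive cells in 6 of 6 libraries, with 123.2 against 123.6 CPM in the CORIN-positive cells of D28 replicate B. Over D28 and D45 the difference of the SOX10-positive cells was -0.22 (SE 0.10, adjusted p = 0.132), and with total UMIs it was -0.36 and passed (adjusted p = 0.0267). For D28 against D11 the values were -0.25 in other STMN2-positive (SE 0.19, adjusted p = 0.441) and 0.23 in CORIN-positive cells (SE 0.16, adjusted p = 0.31).

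FBXO7 was lowest in the neurons of D11 and highest in the SOX10-positive cells of D45. TH-positive cells held 9.90 and 8.37 CPM on D11, 19.3 and 21.9 CPM on D28 and 22.2 and 22.5 CPM on D45. Other STMN2-positive cells held 12.3, 9.09, 20.7, 20.6, 24.5 and 23.0 CPM, so D11 lay apart in both neuronal groups. AQP4-positive cells held 19.9 and 15.9 CPM on D28, from 18 and 7 UMIs, and 24.5 and 24.2 CPM on D45. CORIN-positive cells held 18.9, 17.9, 28.3, 31.5, 24.1 and 25.9 CPM. SOX10-positive cells held 14.5, 17.9, 14.8 and 28.3 CPM on D11 and D28, and 45.4 and 38.2 CPM on D45. On D45 this was above all other groups, which lay between 22.2 and 25.9 CPM.

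FBXO7 was higher on D28 than on D11 by 0.63 in CORIN-positive cells (SE 0.17, adjusted p = 0.0355). That call was lost under 10 of 17 alternatives, among them leaving out D11 replicate A (adjusted p = 0.308), D11 replicate B (adjusted p = 0.277), D45 replicate A (adjusted p = 0.0563) or D45 replicate B (adjusted p = 0.0553), and the replicate block (0.63, adjusted p = 0.0831). In other STMN2-positive cells the same step was 0.77 (SE 0.24, adjusted p = 0.0794), and it was 0.89 (adjusted p = 0.0101) without D28 replicate B and 0.58 (adjusted p = 0.453) without D11 replicate B. From D28 to D45 it was 0.90 in SOX10-positive cells (SE 0.29, adjusted p = 0.189), 1.37 (adjusted p = 0.0124) without D28 replicate B and 0.63 (adjusted p = 0.128) without D28 replicate A. It was 0.21 in AQP4-positive cells (SE 0.32, adjusted p = 0.683). Against other STMN2-positive cells of D11 and D28 FBXO7 was higher by 0.84 in CORIN-positive cells (SE 0.12, adjusted p = 0.0039), which passed under all 16 alternatives. On D45, which the main test left out, CORIN-positive cells held 24.1 and 25.9 CPM against 24.5 and 23.0 CPM. The value in SOX10-positive cells of D28 and D45 was 0.64 (SE 0.24, adjusted p = 0.0741). It was 0.88 (adjusted p = 0.00302) without D28 replicate A, whose SOX10-positive cells had few oligodendrocyte markers. It was 0.48 (adjusted p = 0.265) without D45 replicate A. In all, 4 of 16 alternatives passed, and the values ran from 0.48 to 1.04.

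**Figure D2:**
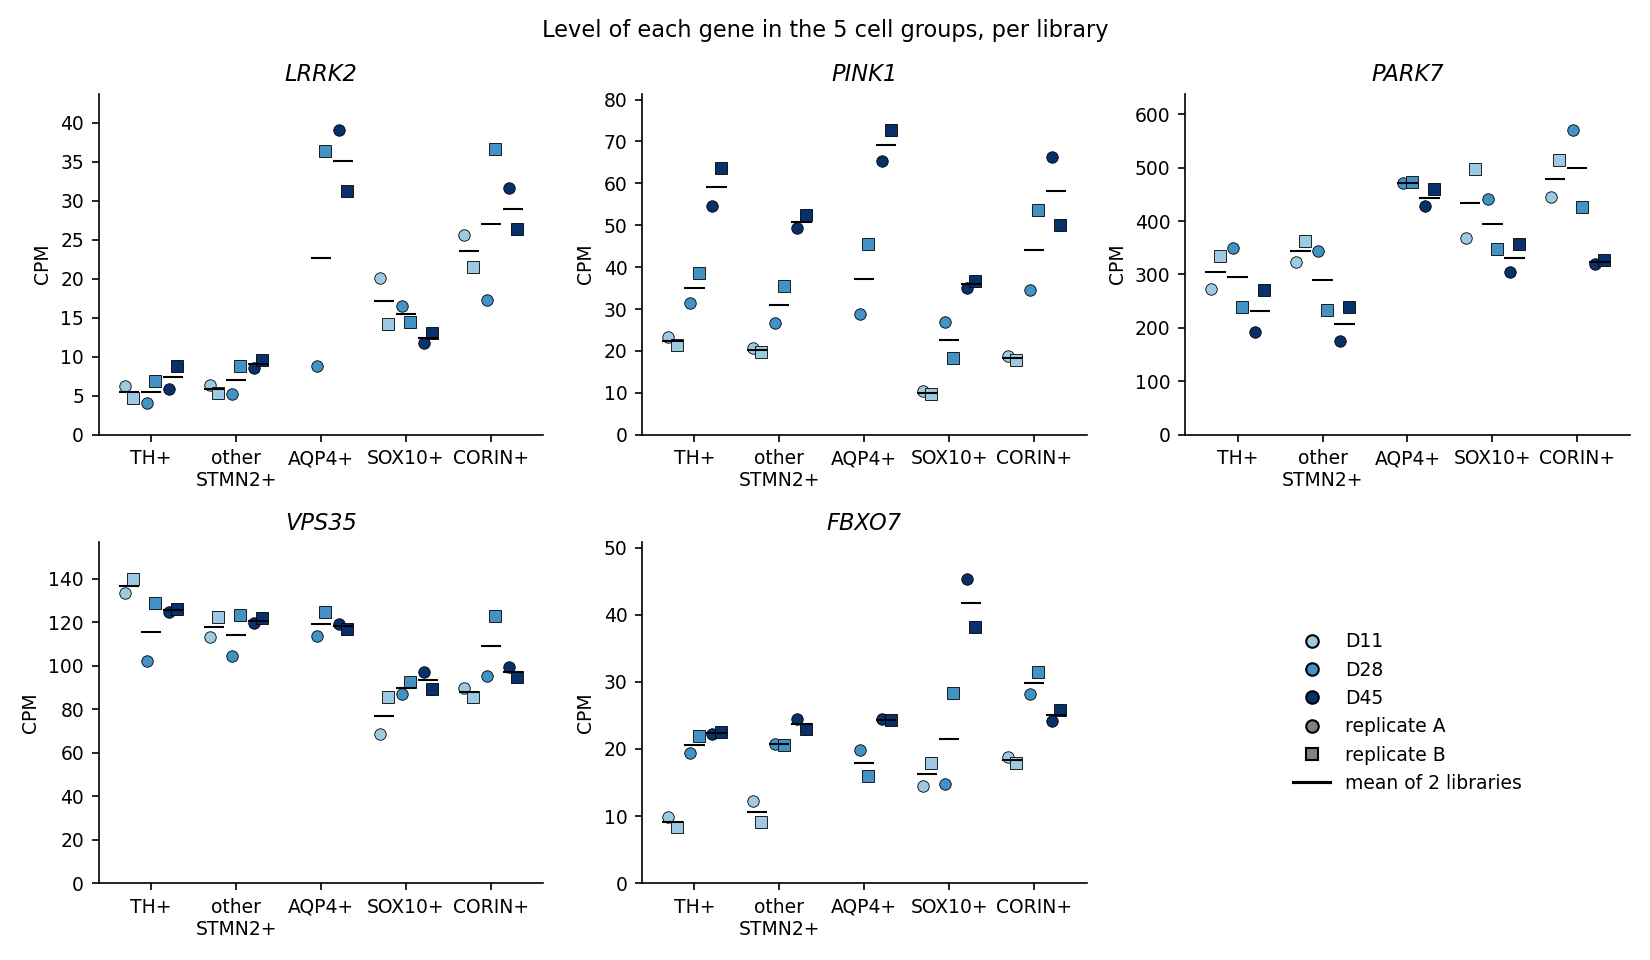
Level of each gene in the 5 cell groups (x axis) in CPM (y axis, linear from 0, a scale of its own for each gene). Each point is 1 library with at least 20 cells of the group, coloured by day, a circle for replicate A and a square for replicate B, and lines are means of 2 libraries. LRRK2 lies under 10 CPM in both neuronal groups and reaches 39.1 CPM in AQP4-positive cells, and FBXO7 reaches 45.4 CPM in the SOX10-positive cells of D45.

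Counted over members, the non-neuronal groups each differed from other STMN2-positive cells in 2 or 3 of 5. The CORIN-positive comparison covers D11 and D28, and the others cover D28 and D45. In AQP4-positive cells LRRK2, PARK7 and PINK1 were called and higher, 3 of 5 against 45.9% of 16388 genes called. In SOX10-positive cells LRRK2 and PARK7 were called, 2 of 5 against 40.1% of 16550 genes. In CORIN-positive cells LRRK2, PARK7 and FBXO7 were called, 3 of 5 against 42% of 16916 genes. These shares are near the background of each comparison, so the number of members called is no result about them, and the 3 comparisons share the other STMN2-positive sums of D28. For TH-positive cells 0 members were called against 3.16% of 16693 genes, with 3 members at an unadjusted p under 0.05 and 0 called by DESeq2. In the AQP4-positive comparison the median gene stood at -0.12, so member differences are 0.12 larger when set against it. Total UMIs placed the median gene 0.15 lower than TMM in the SOX10-positive and 0.18 lower in the CORIN-positive comparison. With that scaling the share of called genes that were higher went from 46.7% to 34.5% and from 52.3% to 38.6%, and for TH-positive cells from 69.5% to 54.1%.

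**Figure D3:**
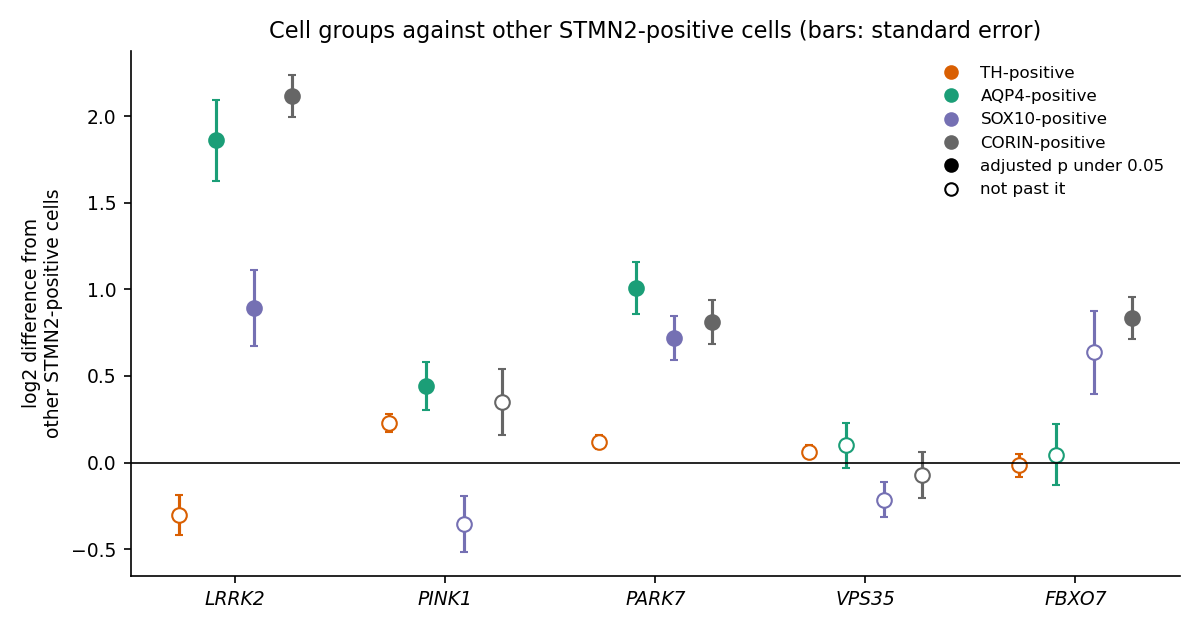
Difference of 4 cell groups from other STMN2-positive cells of the same libraries (y axis, log2 scale, points with the standard error) for each gene (x axis). CORIN-positive cells were compared over D11 and D28, and the other groups over D28 and D45. Filled points passed an adjusted p of 0.05 in edgeR. The largest differences are those of LRRK2, 2.12 in CORIN-positive and 1.86 in AQP4-positive cells, and no TH-positive point is filled.

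Between days, 2 of 5 members were called for D28 against D11 in CORIN-positive cells (PINK1 and FBXO7), where 25.3% of 17940 genes were. In other STMN2-positive cells 0 of 5 were called against 10.7% of 18304 genes for D28 against D11, and 0 of 5 against 0.229% for D45 against D28. The other comparisons of D45 with D28 also called 0 of 5, against 1.43% of 15626 genes in TH-positive cells, 1.64% of 13786 in AQP4-positive cells and 0.00799% of 12510, which is 1 gene, in SOX10-positive cells. In each of these 5 comparisons 1 member had an unadjusted p under 0.05 and DESeq2 called 0 members. With total UMIs the share of called genes that were higher went from 50.5% to 71.2% for D28 against D11 in other STMN2-positive cells. For D45 against D28 total UMIs called 2 genes in place of 226 in AQP4-positive cells and 11 in place of 1 in SOX10-positive cells. LRRK2 differed between D45 and D28 by 0.28 in other STMN2-positive (SE 0.29, adjusted p = 0.575), 0.36 in TH-positive (SE 0.36, adjusted p = 0.559), 0.72 in AQP4-positive (SE 0.47, adjusted p = 0.348) and -0.32 in SOX10-positive cells (SE 0.30, adjusted p = 0.553). Without D28 replicate B the AQP4-positive value was 1.71 (adjusted p = 0.0279), and without D28 replicate A it was 0.0061 (adjusted p = 0.997). With a library left out the TH-positive value of LRRK2 ran from 0.00061 to 0.67 and did not pass.

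**Figure D4:**
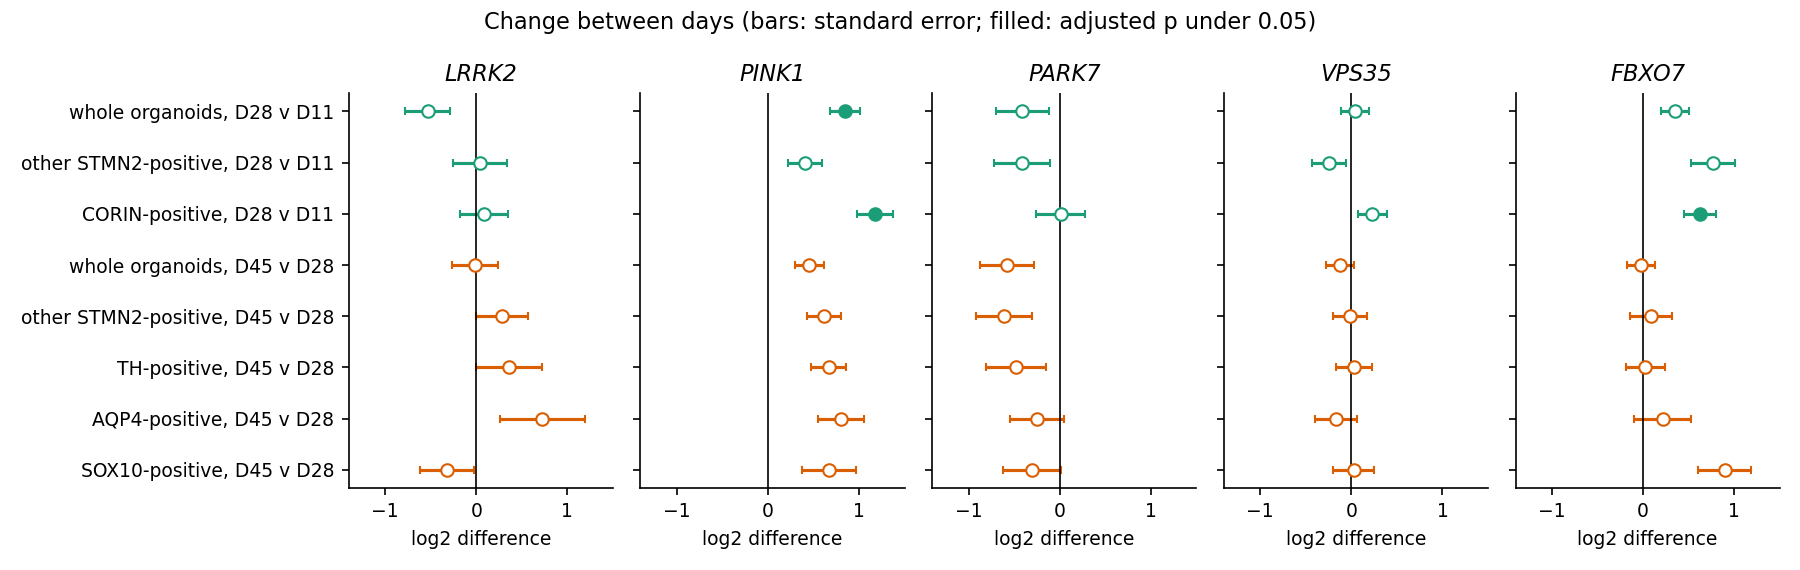
Change of each gene between days (x axis, log2 difference, points with the standard error) in whole organoids and in cell groups (rows), green for D28 against D11 and orange for D45 against D28. Filled points passed an adjusted p of 0.05. PINK1 is right of 0 in every row, by 0.41 to 1.18, and filled in 2 of them, whole organoids and CORIN-positive cells from D11 to D28.

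The change from D11 to D28 was also compared directly between CORIN-positive and other STMN2-positive cells. It differed for PINK1 by 0.78 (SE 0.15, adjusted p = 0.015), for VPS35 by 0.50 (SE 0.12, adjusted p = 0.0301) and for PARK7 by 0.47 (SE 0.11, adjusted p = 0.0319), each more positive in CORIN-positive cells. Under total UMIs the median gene was 0.14 lower, the share of called genes with a positive difference went from 58.5% to 42.7%, and only PINK1 was called. These are 3 of 5 members against 21.3% of 18412 genes called. All 3 calls were lost when D11 replicate A or D11 replicate B was left out, at adjusted p of 0.182 to 0.49, and without the library term, at 0.161 to 0.714, and DESeq2 called 1 of the 3. The calls of PINK1 and VPS35 were also lost with thinned cells (adjusted p = 0.0757 and 0.302) and with an STMN2 gate of 1 UMI, where they were 0.37 (adjusted p = 0.151) and 0.19 (adjusted p = 0.29). The change from D28 to D45 did not differ detectably between AQP4-positive and other STMN2-positive cells for any member, 0 of 5 against 3.04% of 17807 genes, with 0 at an unadjusted p under 0.05 and 0 by DESeq2. Its values were 0.42 for LRRK2 (SE 0.42, adjusted p = 0.704) and 0.34 for PARK7 (SE 0.25, adjusted p = 0.571), while the median gene stood at 0.14.

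Within SOX10-positive cells, those with a UMI of MAG, a myelin protein gene of mature oligodendrocytes, held far more FBXO7 and far less LRRK2 than those without. This split was added after the levels above had been seen. MAG-positive cells numbered 45 in D28 replicate B, 426 in D45 replicate A and 371 in D45 replicate B, which is 13.1%, 33.4% and 29.4% of the SOX10-positive cells, and there were 0 in the other 3 libraries. On D45 they held MBP at 4614 ± 312 CPM (SD, n = 2 libraries) against 222 ± 65.7 CPM in the others, and the precursor marker PDGFRA at 20.3 ± 7.83 CPM against 209.7 ± 36.2 CPM. The cells without MAG thus kept more of the precursor marker, with some myelin gene UMIs.

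FBXO7 stood at 62.6, 73.7 and 66.2 CPM in the MAG-positive cells of D28 replicate B and D45 replicates A and B, and at 22.9, 25.3 and 25.2 CPM in the other SOX10-positive cells of these libraries. The D45 values without MAG lie within the range of the other cell groups on that day, and the MAG-positive values are above every other sum of any group or day. The difference was 1.62 on the log2 scale (SE 0.12, adjusted p = 1.1e-04). LRRK2 went the other way, at 6.26, 3.88 and 2.85 CPM, from 3, 22 and 12 UMIs, against 15.7, 17.4 and 17.7 CPM, a difference of -2.11 (SE 0.25, adjusted p = 8.1e-04). The 3 UMIs of D28 replicate B leave its value imprecise. On D45 LRRK2 with MAG was below its level in the TH-positive (5.86 and 8.86 CPM) and other STMN2-positive cells (8.51 and 9.63 CPM) of the same libraries. Both differences held the same sign in 3 of 3 libraries and passed under all 8 alternatives, with ranges of 1.46 to 1.65 and -2.27 to -1.83.

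VPS35 was higher with MAG by 0.63 (SE 0.10, adjusted p = 0.0028), which also passed under all 8. PINK1 was higher by 0.45 (SE 0.14, adjusted p = 0.0362), a call lost under DESeq2 and total UMIs and without D45 replicate A (adjusted p = 0.295) or D45 replicate B (adjusted p = 0.163). PARK7 lay at 348 CPM with MAG on D28 and at 317 ± 33.5 CPM on D45, against 338 ± 35.8 CPM without MAG on D45. So 4 of 5 members were called, against 42.6% of 13049 genes. Among the genes called 43.8% were higher with MAG, and 30.2% under total UMIs. MAG-positive cells of D45 had a median of 13305 and 11309 UMIs and the others 9116 and 10084, and the part of this depth in the values was not tested. With no MAG-positive cells in D11 or D28 replicate A, this split covers the libraries in which oligodendrocyte markers were present.

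**Figure D5:**
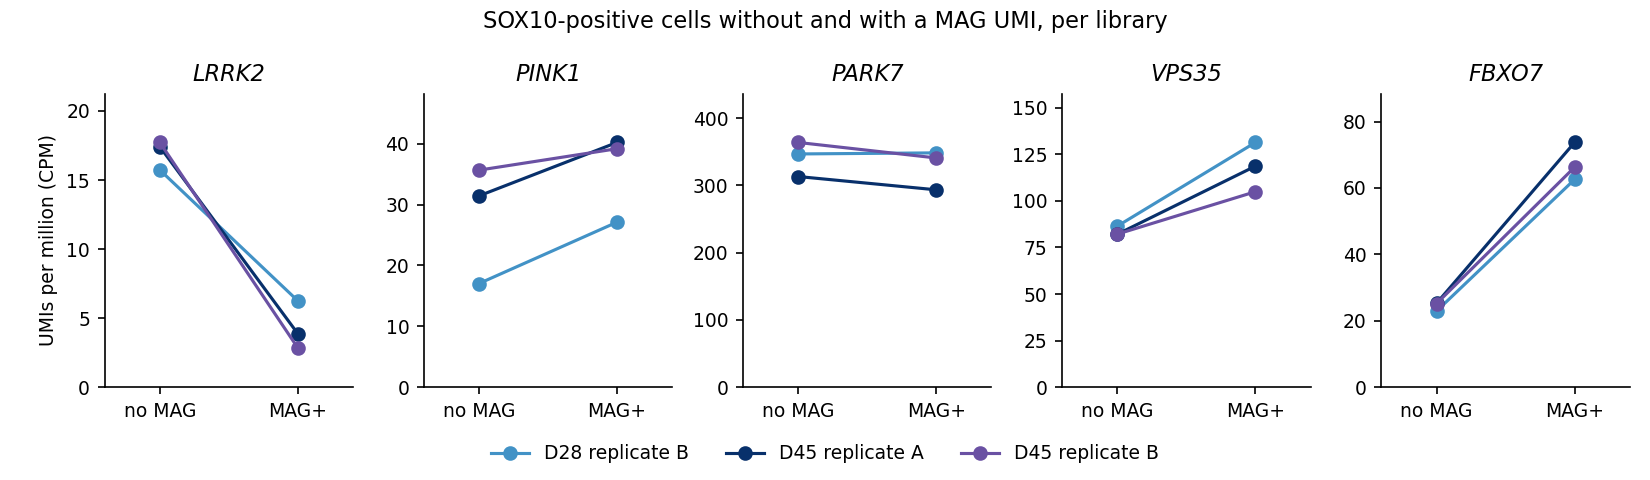
Level of each gene in SOX10-positive cells without and with a MAG UMI (x axis) in CPM (y axis, linear from 0, a scale of its own for each gene). Each line joins both values of 1 of the 3 libraries with at least 20 cells on each side. FBXO7 climbs from 25.3 to 73.7 CPM and LRRK2 drops from 17.4 to 3.88 CPM in D45 replicate A, and the other 2 libraries moved the same way.

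Genes of the same pathways were counted in 6 lists, which hold none of the 5 members. The files give 5 of their genes (SNX1, PARL, TXN2, CHCHD2 and TMEM230) by Ensembl ID alone, and these were matched through a table of gene names. In the list of antioxidant defence, to which DJ-1 belongs by function, no called gene was lower in the AQP4-, SOX10- or CORIN-positive group than in other STMN2-positive cells. Of its 19 genes found, 13 were higher and 0 lower in AQP4-positive than in other STMN2-positive cells (median 0.55), 10 and 0 in SOX10-positive cells (median 0.53) and 7 and 0 in CORIN-positive cells (median 0.39). Over all genes tested 20.3% were higher and 25.6% lower in the first of these comparisons, 18.7% and 21.4% in the second and 22% and 20% in the third. Examples are NQO1, a quinone reductase, higher by 2.67 in AQP4-positive cells (SE 0.19, adjusted p = 1.6e-05), PRDX1 by 1.28 in SOX10-positive cells (SE 0.16, adjusted p = 0.0015) and PRDX4 by 1.42 in CORIN-positive cells (SE 0.21, adjusted p = 0.0045), the last 2 being peroxide-removing peroxiredoxins. With total UMIs these counts were 11 and 0, 6 and 0, and 7 and 0. In TH-positive cells 3 rose and 0 fell against 2.2% and 0.964% of all genes, led by PRDX6 at 0.29 (SE 0.04, adjusted p = 0.0155). Within the SOX10-positive cells the list split, with 4 genes higher and 4 lower with MAG (median -0.05, or 3 and 5 with total UMIs), among them GPX4 at 1.33 (SE 0.14, adjusted p = 5.5e-04) and PRDX6 at -1.60 (SE 0.14, adjusted p = 2.3e-04).

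Over time whole organoids had 3 genes of this list higher and 0 lower on D28 than on D11 (median 0.06, or 5 and 0 with total UMIs), against 12.5% and 10.6% of all genes. On D45 3 were higher and 3 lower than on D11, against 17.3% and 17.4% of all genes, with a median of -0.36, or 0.05 with total UMIs. In the latter GCLC, which makes the precursor of glutathione, was higher by 1.60 (SE 0.23, adjusted p = 0.0027) and PRDX6 differed by -1.71 (SE 0.34, adjusted p = 0.0091). In CORIN-positive cells 5 were higher and 0 lower on D28 than on D11 (median 0.41), against 14% and 11.3% of all genes, with GCLM, the partner of GCLC, at 2.08 (SE 0.32, adjusted p = 0.0038).

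Of the 14 genes of the retromer and its partners found, 5 were higher and 0 lower in SOX10-positive than in other STMN2-positive cells (median 0.30), led by the sorting nexin SNX1 at 0.94 (SE 0.24, adjusted p = 0.0227), and VPS35 itself was not called there. AQP4-positive cells had 2 higher and 1 lower, SNX3 at 1.21 (SE 0.17, adjusted p = 4.7e-04) and SNX27 at -0.59 (SE 0.16, adjusted p = 0.0129), and CORIN-positive cells 3 higher and 0 lower. For comparison, the tests called higher and lower 20.3% and 25.6% of all genes in the AQP4-positive, 18.7% and 21.4% in the SOX10-positive and 22% and 20% in the CORIN-positive comparison. With total UMIs the counts were 3 and 0 in SOX10-positive, 2 and 1 in AQP4-positive and 2 and 1 in CORIN-positive cells. With MAG, 6 were higher and 0 lower (median 0.27) against 18.7% and 23.9% of all genes (5 and 0 with total UMIs), led by RAB7A, the late endosomal GTPase that recruits retromer, at 1.18 (SE 0.11, adjusted p = 2.9e-04).

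In the list of mitochondrial quality control (21 genes found) SQSTM1, the autophagy receptor p62, had the largest rise in AQP4-positive cells, 1.37 (SE 0.15, adjusted p = 1.3e-04), and in SOX10-positive cells, 1.15 (SE 0.17, adjusted p = 0.003). It also rose from D11 to D28 in whole organoids, by 1.42 (SE 0.27, adjusted p = 0.012), and in CORIN-positive cells, by 1.92 (SE 0.27, adjusted p = 0.0026). The list as a whole had no single direction, with 3 higher and 6 lower in AQP4-positive cells (median -0.21), 1 and 3 in SOX10-positive cells (median -0.17) and 5 and 2 in CORIN-positive cells (median 0.06). With total UMIs these were 3 and 7 (median -0.29), 1 and 6 (median -0.32) and 3 and 5 (median -0.11). The shares of all genes were 20.3% higher and 25.6% lower in AQP4-positive, 18.7% and 21.4% in SOX10-positive and 22% and 20% in CORIN-positive cells, which also serve the next list. Among the 14 substrates and regulators of LRRK2, the synaptic vesicle GTPase RAB3A fell furthest in AQP4-positive (-2.40, SE 0.16, adjusted p = 1.3e-05), SOX10-positive (-2.04, SE 0.26, adjusted p = 0.0017) and CORIN-positive cells (-2.99, SE 0.19, adjusted p = 3.9e-04). RILPL2, which binds phosphorylated Rab proteins, had the largest rise in AQP4-positive cells, 1.16 (SE 0.20, adjusted p = 0.0016), and in CORIN-positive cells, 1.70 (SE 0.11, adjusted p = 4.0e-04). These 3 groups had 3 higher and 3 lower, 3 and 3, and 4 and 3 members of that list, and with total UMIs 2 and 3, 1 and 3, and 3 and 5.

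Of the 6 partners of FBXO7 found, 2 were higher and 1 lower in AQP4-positive and in SOX10-positive cells and 1 and 0 in CORIN-positive cells (1 and 1, 1 and 1, and 0 and 0 with total UMIs). CDK6 had the largest rise in the first 2. It was higher than in other STMN2-positive cells by 1.27 in AQP4-positive (SE 0.19, adjusted p = 7.2e-04) and 1.13 in SOX10-positive cells (SE 0.29, adjusted p = 0.0208), and lower with MAG by -2.77 (SE 0.30, adjusted p = 5.3e-04), where FBXO7 was higher. PSMF1 was lower in AQP4-positive cells, at -1.01 (SE 0.15, adjusted p = 5.7e-04), and in SOX10-positive cells, at -1.13 (SE 0.14, adjusted p = 0.0014). Of 12 other genes tied to parkinsonism, 1 was higher and 6 were lower in AQP4-positive cells (median -0.38), LRP10 at 2.21 (SE 0.18, adjusted p = 2.3e-05) and SYNJ1, a phosphatase of synaptic vesicle recycling, furthest down at -1.84 (SE 0.16, adjusted p = 3.6e-05). SOX10-positive cells had 1 higher and 4 lower (median -0.24, or 1 and 6 with total UMIs) and CORIN-positive cells 3 and 4 (median 0.13, or 2 and 4). Higher and lower shares over all genes were 20.3% and 25.6% in the AQP4-positive, 18.7% and 21.4% in the SOX10-positive and 22% and 20% in the CORIN-positive comparison. With MAG, 6 of 11 tested were higher and 0 lower, against 18.7% and 23.9% of all genes, led by RAB39B at 1.39 (SE 0.22, adjusted p = 0.0027), but with total UMIs 2 were higher and 1 lower. In whole organoids 4 of the 12 were higher and 0 lower on D28 than on D11, led by the lysosomal pump ATP13A2 at 1.17 (SE 0.16, adjusted p = 0.0038), against 12.5% and 10.6% of all genes.

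For each member the genes with the most similar levels were sought over 25 sums of library and cell group with at least 100 cells, among 9360 genes with a mean of at least 10 CPM. The sums share libraries and scaling, so the correlations are descriptions. LRRK2 was most like IL6ST (r = 0.95), GALNT7 (0.95) and POLR3B (0.95), and PINK1 most like IRF2BP2 (0.95), STAT3 (0.93) and GRAMD4 (0.92). PARK7 followed SPAG8 (0.95), HSD17B8 (0.94) and RNF26 (0.94), VPS35 followed PCDHA13 (0.94), DCTN1 (0.92) and SYT1 (0.88), and FBXO7 followed MTSS2 (0.96), WDFY1 (0.92) and DOCK9 (0.92). Among the members themselves r ran from -0.51, for PARK7 with VPS35, to 0.53, for LRRK2 with PARK7.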

How the data were processed

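Single-cell 3′ RNA libraries were made from pMLOs of D11, D28 and D45 in replicates A and B. The deposited values are raw UMI counts per gene and cell barcode, which the authors made with Cell Ranger 8.0.1 on Sscrofa11.1, one matrix a library and with no normalization (Seurat 4.3.0 served their later steps). Barcodes and gene tables hold no measurement. Cells with 200 to 7000 detected genes and at most 10% mitochondrial UMIs were kept, and doublets were scored but left in. Counts were summed per library and cell group with at least 20 cells, since cells are not replicates.

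Sums were tested with edgeR 4.0.16 in R 4.3.3 (quasi-likelihood, TMM, low counts filtered, all 6 libraries sharing the spread where a day comparison allowed, a library term between groups), with Benjamini-Hochberg adjustment over all genes tested and a threshold of 0.05. The code was tested on simulated data. All member differences that passed or reached 0.2 on the log2 scale are printed. Group comparisons use other STMN2-positive cells as their reference, except that MAG-positive cells were set against the other SOX10-positive cells. For members and lists alike, CORIN-positive cells were compared over D11 and D28, and TH-, AQP4- and SOX10-positive cells over D28 and D45. Alternatives were DESeq2 1.42.0, its size factors, no filter, looser cells, no doublets, thinning to 2000 UMIs, other gates, the replicate block or no library term, and each library left out. Total UMIs in place of TMM, and the MAG comparison, were added after seeing the data. Intervals of counts cover counting error only.

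The members and lists were chosen with earlier results of these data known. Besides the members, the gate genes and markers, the text names some of the genes with the largest rise or fall per list and comparison among called genes. For each member it also names the 3 genes most correlated with it. Gene positions and starts come from RefSeq on Sscrofa11.1.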

Additional observations from a re-analysis of the deposited data

Results flagged for a closer look

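The change from D11 to D28 differed between CORIN-positive and other STMN2-positive cells for 3 of the 5 genes, by a test of the difference itself (edgeR, adjusted over 18412 genes). PINK1 differed by 0.78 on the log2 scale (adjusted p = 0.015), VPS35 by 0.50 (adjusted p = 0.0301) and PARK7 by 0.47 (adjusted p = 0.0319), each more positive in CORIN-positive cells, where 21.3% of all genes were called. PINK1 went from 18.8 and 17.8 CPM to 34.6 and 53.5 CPM in CORIN-positive cells, and from 20.8 and 19.7 CPM to 26.6 and 35.4 CPM in other STMN2-positive cells. All 3 calls were lost without D11 replicate A, at adjusted p of 0.189, 0.278 and 0.49, without D11 replicate B, at 0.182, 0.467 and 0.391, and without the library term, at 0.161, 0.301 and 0.714. PINK1 and VPS35 also lost theirs with thinned cells and with an STMN2 gate of 1 UMI. VPS35 and PARK7 also lost theirs under DESeq2 and with total UMIs.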

How the results depend on the processing

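Of the 54 member differences that passed or reached 0.2 on the log2 scale, 20 were called, 9 of these passed under all alternatives run and 0 changed sign. Of the 34 not called, 24 passed under at least 1 alternative and 6 changed sign under at least 1. The number of members called, 1 for D28 against D11 in whole organoids, was 2 with total UMIs and 0 to 2 with a library left out. For D45 against D28 it was 0, and 0 to 2 with a library left out. For D45 against D11 it was 2, and 1 with the replicate block or without doublets and 1 to 4 with a library left out. In other STMN2-positive cells it was 0 for D28 against D11, and 1 with total UMIs, with thinned cells or with an STMN2 gate of 1 UMI and 0 to 1 with a library left out. For D45 against D28 it was 0, and 0 to 2 with a library left out, in other STMN2-positive and in TH-positive cells. In AQP4-positive cells it was 0, and 2 with gates of 2 UMIs (a setting that also raised the STMN2 limit from 3 to 5 UMIs), 1 with an STMN2 gate of 1 UMI and 0 to 2 with a library left out. In SOX10-positive cells it was 0, and 0 to 1 with a library left out. In CORIN-positive cells it was 2, and 1 with no filter, the replicate block, looser cells, thinned cells, an STMN2 gate of 1 UMI or overlapping cells kept, and 0 to 2 with a library left out. For TH-positive against other STMN2-positive cells it was 0, and 1 with DESeq2 size factors, looser cells or all libraries, 2 with gates of 2 UMIs and an STMN2 limit of 5, overlapping cells or TH-positive cells with 3 STMN2 UMIs, and 3 with an STMN2 gate of 1 UMI. For SOX10-positive cells it was 2, and 1 without the library term and 3 with total UMIs, thinned cells or overlapping cells kept. It was 4 there with gates of 2 UMIs and an STMN2 limit of 5, and 1 to 4 with a library left out. For the CORIN-positive change set against that of other STMN2-positive cells it was 3, and 1 with DESeq2, total UMIs, thinned cells or an STMN2 gate of 1 UMI, 0 without the library term and 0 to 3 with a library left out. The causes were not tested.

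Signs changed only where no call was made. LRRK2 for D45 against D28 in other STMN2-positive cells was -0.11 with gates of 2 UMIs and an STMN2 limit of 5, and LRRK2 in TH-positive against other STMN2-positive cells was 0.24 with overlapping cells kept. In AQP4-positive cells PARK7 was 0.19 with thinned cells and FBXO7 was -0.11 with an STMN2 gate of 1 UMI. With a library left out, PARK7 for D45 against D28 in SOX10-positive cells ran from -0.55 to 0.0040, and the LRRK2 change in AQP4-positive against other STMN2-positive cells from -0.057 to 1.21. The replicate letters were not taken to pair libraries, since the deviations of A libraries from their day means correlated at -0.33 between D11 and D28, 0.05 between D11 and D45 and -0.19 between D28 and D45. With the replicate block the genes called in whole organoids went from 5131 to 3314 for D28 against D11 and from 2086 to 628 for D45 against D28. DESeq2 called 4353 in the latter, 1587 against 42 in other STMN2-positive, 1160 against 223 in TH-positive, 980 against 226 in AQP4-positive and 638 against 1 in SOX10-positive cells for D45 against D28. Without D28 replicate B the same comparisons called 10003, 6989, 4618, 3531 and 4660 genes, without D28 replicate A 4167, 1726, 955, 8 and 905. Without D45 replicate A 0 genes were called in whole organoids and in other STMN2-, TH- and SOX10-positive cells and 250 in AQP4-positive cells, and without D45 replicate B 64, 0, 0, 371 and 0. For TH-positive against other STMN2-positive cells 528 genes were called, 1 without the library term and 4954 with an STMN2 gate of 1 UMI. LRRK2 rests on 8 and 16 UMIs in the AQP4-positive cells of D28, which limits its precision there.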
